A study of Mus musculus with 18 samples.

Results

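Binding of the insulator protein CTCF was mapped in thymocytes with and without Satb1, and 3 peak lists hold that experiment here. They are 1 list from WT mice and 2 from Satb1 KO mice, out of 7 peak lists analysed and 18 samples in the series, and they were taken as every list made with the CTCF antibody, on chromosomes 1 to 19. All groups were DP (CD4+ CD8+) thymocytes sorted from the thymus of mice given tamoxifen, so that the WT controls carried the drug as well as the KO mice. In the titles the WT list and KO list 1 are replicate 1 and KO list 2 is replicate 2. Batch numbers used here equal these replicate numbers, and the titles do not say whether such libraries were prepared together. The labels do not give the driver of the deletion, the age of the mice or whether replicates are separate animals. A second WT CTCF list was not analysed here. The 4 SMC1A lists of the series, 2 WT and 2 KO with 1 of each per batch, served as a second readout at CTCF regions. Their genotypes and batches are those of the CTCF libraries, so agreement between the 2 is not independent support. Peak lists carry no expression, so neither the labelled cell type nor the loss of Satb1 could be checked from them.

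CTCF is a zinc finger protein that binds a long, asymmetric DNA motif, and at bound sites it halts cohesin, the ring complex that extrudes chromatin into loops. The anchored loops insulate genes from enhancers of neighbouring domains, and in thymocytes CTCF is known for shaping the antigen receptor loci during recombination. SATB1 folds chromatin in the nuclei of thymocytes, where it is abundant, and is known for regulating T-lineage genes such as Cd4, Cd8a, Rag1 and Rag2. In CUT&RUN, the assay used, a nuclease tethered to the bound antibody releases the DNA around the protein for sequencing.

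The 3 lists differed in length and in background before any genotype was considered. They held 38222 peaks in WT, 54222 in KO list 1 and 22351 in KO list 2. The local background behind the peaks, solved from the authors' fold and −log10 p, had a median of 1.46 fragments in WT, 2.64 in KO list 1 and 4.46 in KO list 2. At the regions shared by all 3 lists the background was a median of 1.78 times the WT one in KO list 1 and 3.21 times in KO list 2. The ratio was within 1% of these medians at 57.3% and 46.7% of the regions, so at many regions the background differed between lists by a common factor and cannot be read as a noise level of each library. The list with the highest background had the fewest peaks. Median fold enrichment was 5.88 in WT, 5.93 in KO list 1 and 4.21 in KO list 2, and the peaks covered 20.7, 34.3 and 10.5 Mb. Read numbers are unknown from such lists, fold and −log10 q are the authors' own values for each peak, and with 1 list against 2 no test between genotypes could go below p = 0.3333 in an exact permutation, so none was made on the CTCF lists. All counts below are descriptions of these 3 libraries, in which genotype, list length and background cannot be told apart.

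Peaks that overlapped by at least 1 bp were merged, which gave 62309 regions. All 3 lists held 16902 of them (27.1%). The WT list held 35499 regions. KO list 1 held 80.3% of them and KO list 2 held 48.2%. Of the WT regions 6780 were in neither KO list, which is 19.1% of the WT regions, and these are called WT-only regions. Both KO lists held 18394 regions, of which 1492 (8.11%) were absent from the WT list, and these are called KO-only regions. A further 11611 regions were in WT and KO list 1 and not in KO list 2, against 206 in WT and KO list 2 alone. The remaining 23482 and 1836 regions were in KO list 1 alone and KO list 2 alone. When the merge was repeated with WT and a single KO list, 20461 of 37954 WT regions had no partner in KO list 2 and 7043 of 35573 had none in KO list 1, which shares the WT batch. The numbers of WT regions differ because a KO peak can join neighbouring WT peaks. The KO-only counts in these merges were 3915 with KO list 2 and 25071 with KO list 1.

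Which WT regions had no partner followed their strength in WT. When WT regions were ordered by fold enrichment into 10 deciles, 49.1% of the weakest decile were in neither KO list, and 50.6% of the next. The share was 15.6% in the fifth decile, 1.30% in the seventh and 0.0282%, 1 region, in the strongest decile. The strongest 3 deciles together left 6, 2 and 1 regions without a KO partner. KO list 2 held 11.0% of the weakest decile and 98.8% of the strongest, while KO list 1 held 50.1% and nearly all (99.97%). WT-only regions had a median fold of 4.21, a median summit pile-up of 9 fragments and a median width of 234 bp. Regions of all 3 lists had 9.71, 25 fragments and 648 bp in the same WT list. KO-only regions stood at a median percentile of 53.0 in KO list 1 and 30.6 in KO list 2, with a median fold of 6.38 and 3.64, against 15.6 and 4.57 at regions of all 3 lists. WT-only regions stood at a median percentile of 19.2 in the WT list.

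**Figure D1:**
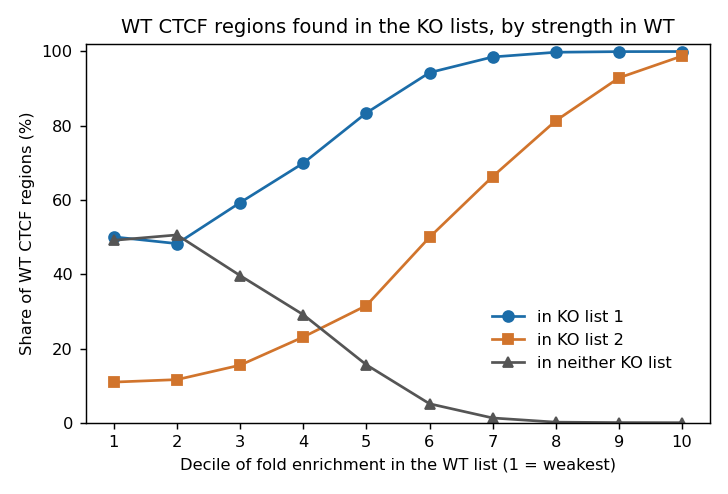
Share of WT CTCF regions (vertical axis, %) that were in KO list 1 (circles), in KO list 2 (squares) or in neither (triangles), by decile of WT fold enrichment (horizontal axis). The share in neither KO list goes from 49.1% in the weakest decile to 0.0282% in the strongest.

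The strongest WT-only regions near protein-coding genes lay at Ptprs, Jup, Klf5, Gm3415, Musk and Rundc3a. Ptprs encodes a receptor tyrosine phosphatase, and its region (chr17:56478947-56479855, mm10, 2971 bp outside the gene body) had a fold of 11.3 in WT with a pile-up of 36 fragments, at the 80.4th percentile of the WT list. Jup encodes plakoglobin, a junction protein, and its region (chr11:100397403-100398274) had a fold of 10.3 with a summit 118 bp from the transcription start. The region 99 bp outside Klf5, a zinc finger factor gene (chr14:99298313-99298773), had a fold of 9.89. At Musk, the muscle receptor kinase gene, the region was inside the gene body (chr4:58322796-58323064) with a fold of 9.35. None of these 6 stood above the 80.4th percentile of its own list. SMC1A had peaks in both WT lists and in neither KO list at the Ptprs and Jup regions. At Rundc3a it had peaks in both WT lists and in KO list 1, and at Klf5 and Gm3415 in WT list 2 only.

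The strongest KO-only regions were at Ccn2, Il17rd, Plod2, Il7r, Cers4 and Slc25a36. Ccn2 encodes a secreted matricellular growth regulator. Its region (chr10:24590531-24591701, 4106 bp outside the gene body) had a fold of 28.7 in KO list 1 and 8.39 in KO list 2, at the 94.9th and 92.1st percentiles of those lists. Il17rd, a membrane regulator of FGF and IL-17 signalling, held a region in its body (chr14:27096191-27097396) with folds of 30.8 and 6.49. The region near Plod2, a collagen lysyl hydroxylase gene (chr9:92610750-92611837), had folds of 21.3 and 6.31. These 3 regions stood at percentiles of 80.8 or more in both KO lists and had no peak in the WT list. SMC1A had peaks in both KO lists at all 6 of the named KO-only regions. In WT it had none at Ccn2, Il17rd and Il7r, a peak in list 2 at Plod2 and Cers4, and peaks in both lists at Slc25a36.

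Il7r encodes the receptor for the survival cytokine IL-7 and is known to be switched off in DP thymocytes. The WT CTCF list had no region within 20 kb of the gene. KO list 1 had 6 regions there and KO list 2 had 1. The one shared by both KO lists was in the gene body (chr15:9523649-9524626), with a fold of 16.8 in KO list 1 and 6.31 in KO list 2 and a summit pile-up of 50 and 26 fragments. In KO list 1 a region also lay at the start of Il7r (chr15:9529655-9530181, summit 5 bp from the start) with a fold of 5.93. SMC1A had peaks at both of these regions in both KO libraries and in neither WT library.

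**Figure D2:**
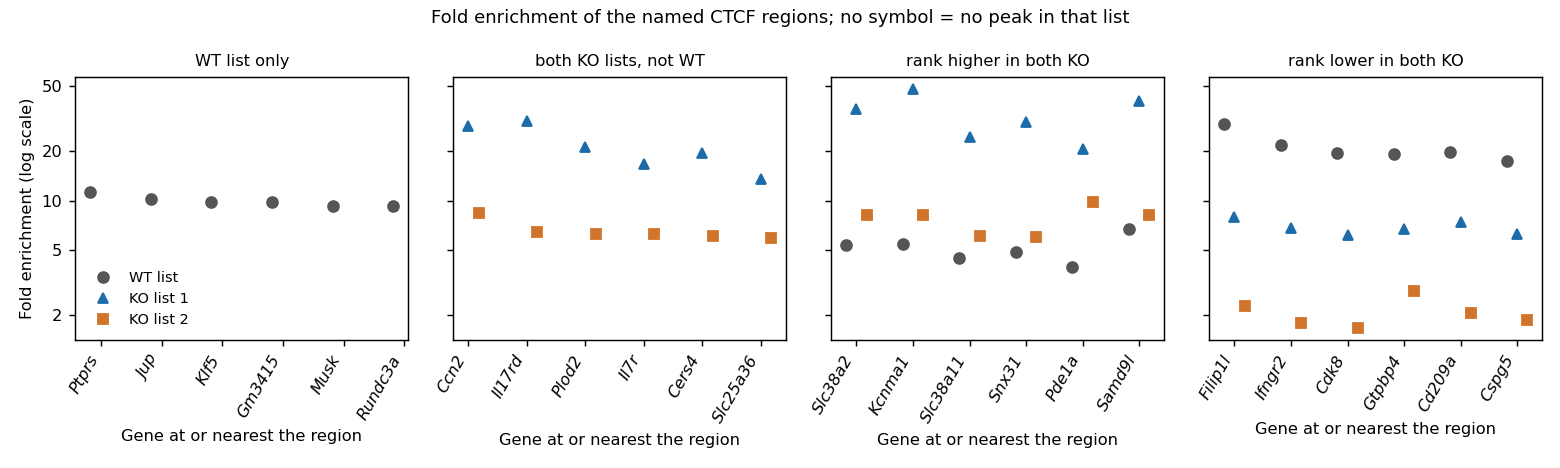
Fold enrichment (log axis) of the 24 regions named by the rule, in the WT list (circles), KO list 1 (triangles) and KO list 2 (squares), by gene. A missing symbol means no peak in that list, and the rank-lower regions run from folds of 17.5 to 29.3 in WT to 1.67 to 2.81 in KO list 2.

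For the 16902 regions of all 3 lists, each list's fold was turned into a percentile among those regions, which removes the difference in scale between lists. The WT and KO list 1 percentiles had a Spearman correlation of 0.772 across regions, WT and KO list 2 of 0.575, and the 2 KO lists of 0.587. These correlations are across regions of the same 3 libraries and describe them only. The KO lists thus lay as far apart from each other as KO list 2 lay from WT, with median gaps of 15.5 and 15.8 percentile points against 10.8 for WT and KO list 1. A region was called ranked higher, or lower, when its percentile was at least 20 points above, or below, the WT one in both KO lists. There were 1099 regions ranked higher (6.50%) and 990 ranked lower (5.86%). When ranks were taken from the summit pile-up instead, which leaves the local background out, 517 (47.0%) of the regions ranked higher and 440 (44.4%) of those ranked lower were past the limit in the same direction and 0 in the opposite one, so most of the fold calls were not shared by that measure. The last region inside the limit stood at 20.0006 points and the first outside at 19.9828, and on the lower side the values were −20.0272 and −19.9888. Both shifts are taken from the same WT list, so an unusual WT value moves both. Regions ranked higher had a median WT percentile of 22.3 and KO percentiles of 61.0 and 65.9, and regions ranked lower had 65.9 in WT and 30.8 and 21.0 in the KO lists.

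**Figure D3:**
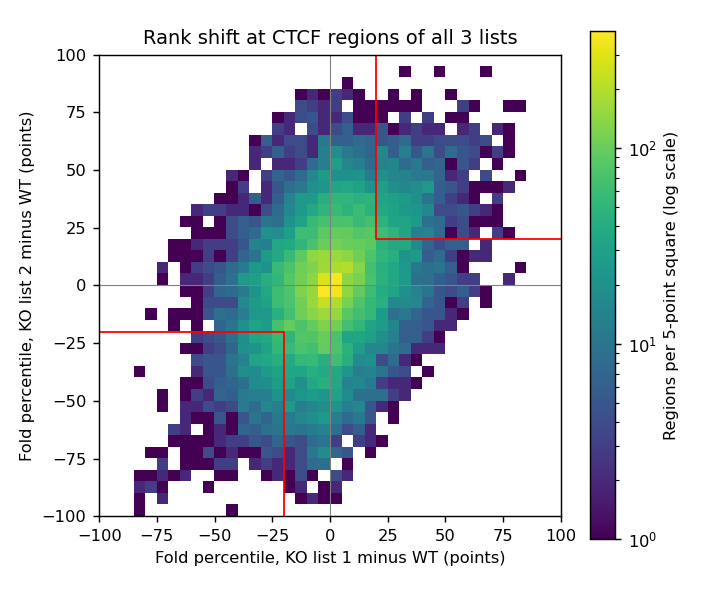
Shift in fold percentile of each region of all 3 lists, KO list 1 minus WT (horizontal axis, points) against KO list 2 minus WT (vertical axis, points), as the number of regions per 5-point square on a log colour scale. The red corners enclose the 1099 regions ranked higher and the 990 ranked lower, and both axes subtract the same WT list, so the tilt of the cloud is no result.

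Among regions ranked higher, those with the largest smaller shift were at Kcnma1, near Slc38a2, and at Slc38a11, Snx31, Pde1a and Samd9l. Kcnma1 encodes a calcium-activated potassium channel, and its region (chr14:23400223-23402570, in the gene body) had a fold of 5.44 in WT, 47.9 in KO list 1 and 8.18 in KO list 2. The region went from the 13.3rd percentile in WT to 95.9 and 89.9 in the KO lists. Pde1a, a cyclic nucleotide phosphodiesterase gene, held a region (chr2:79865112-79866045) with folds of 3.96, 20.6 and 9.82. Samd9l, an interferon-induced gene, had its region at the start (chr6:3399064-3399847) with folds of 6.76, 40.6 and 8.16 and a percentile of 25.3 in WT against 93.5 and 89.7. All 6 regions had KO percentiles of 68.2 or more. The Slc38a2 region was ranked higher by fold and by −log10 q, but its mean shift was 15.3 points instead of 78.3 when ranks were taken from the summit pile-up. The other 5 were ranked higher by pile-up too. SMC1A had peaks in both KO libraries at all 6. In WT it had peaks in both libraries at Slc38a2, Snx31 and Samd9l, in library 2 at Kcnma1 and Slc38a11, and in neither at Pde1a.

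The 6 regions with the largest falls in percentile were of another kind. They lay at Filip1l, Ifngr2, Cdk8, Gtpbp4, Cd209a and Cspg5. The Filip1l region (chr16:57391014-57391814) had folds of 29.3, 7.94 and 2.27, and the Cdk8 region (chr5:146260835-146261471), in the gene of a Mediator kinase, had 19.6, 6.22 and 1.67. Their local backgrounds in WT were 43.3 and 75.3 fragments against the list's median of 1.46, and their WT pile-ups were 1298 and 1491 fragments. Near Ifngr2, a chain of the interferon gamma receptor, the WT background was 12.5 fragments. By summit pile-up the shifts of these 6 lay between −4.95 and −0.06 points, so none was ranked lower by that measure. Of the 31 regions that were lower by at least 60 points in both KO lists, 19 had a local background of at least 5 times the list's median, against none of the 18 that were higher by 60 points. Over all regions ranked lower this applied to 38 of 990 (3.84%), and leaving out such regions gave 1088 ranked higher and 981 ranked lower.

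For scale, the regions of all 3 lists with the highest lowest percentile were listed, a choice that fixes their place near the top of each list. Near Gm32856 (chr8:129300948-129301299) the fold was 212.6 in WT, 307.1 in KO list 1 and 104.2 in KO list 2, and it was at or within 0.01 points of the top in each. The region inside Gria1, a glutamate receptor gene (chr11:57302465-57302852), had folds of 71.3, 131.3 and 37.9. The region 159 bp outside Gins4, a DNA replication gene (chr8:23236989-23238469), had folds of 54.7, 129.1 and 31.4. SMC1A had peaks in all 4 libraries at each of these.

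As examples of sequence at such regions, 4 start regions are printed, 1 for each kind of difference, from RefSeq (GRCm38.p6), each with 250 bases before the start and 50 after it on the gene's strand. Windows with a match were put first in the choice. Capitals mark a match to the core letters CCNNNAGGNGGC of the CTCF motif, searched on both strands. Samd9l, ranked higher, has 1 match on its own strand that begins 50 bases before the start, and the other windows have none. This contrast follows from the choice, as only 10 of 171 windows at regions ranked higher held the core letters. The window of Tubb5, also ranked higher, had none.

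Samd9l (chr6:3399522-3399821, minus strand): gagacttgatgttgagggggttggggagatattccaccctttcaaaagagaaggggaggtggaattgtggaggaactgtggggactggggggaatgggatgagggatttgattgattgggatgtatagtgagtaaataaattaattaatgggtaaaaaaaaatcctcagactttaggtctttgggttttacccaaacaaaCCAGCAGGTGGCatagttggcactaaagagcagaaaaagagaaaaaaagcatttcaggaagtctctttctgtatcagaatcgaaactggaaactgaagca
B2m (chr2:122147437-122147736, plus strand): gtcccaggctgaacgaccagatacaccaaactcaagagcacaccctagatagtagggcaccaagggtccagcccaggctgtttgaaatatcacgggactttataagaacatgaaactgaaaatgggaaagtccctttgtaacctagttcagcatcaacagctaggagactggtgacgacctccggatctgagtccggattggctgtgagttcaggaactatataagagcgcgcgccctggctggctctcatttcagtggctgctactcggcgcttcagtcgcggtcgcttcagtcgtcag
Jup (chr11:100397741-100398040, minus strand): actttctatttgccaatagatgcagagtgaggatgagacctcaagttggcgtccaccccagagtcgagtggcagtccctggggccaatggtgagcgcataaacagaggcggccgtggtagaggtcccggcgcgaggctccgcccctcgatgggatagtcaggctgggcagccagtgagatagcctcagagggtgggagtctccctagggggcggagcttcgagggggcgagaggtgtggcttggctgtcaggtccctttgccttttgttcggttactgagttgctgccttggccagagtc
Ptprc (chr1:138175256-138175555, minus strand): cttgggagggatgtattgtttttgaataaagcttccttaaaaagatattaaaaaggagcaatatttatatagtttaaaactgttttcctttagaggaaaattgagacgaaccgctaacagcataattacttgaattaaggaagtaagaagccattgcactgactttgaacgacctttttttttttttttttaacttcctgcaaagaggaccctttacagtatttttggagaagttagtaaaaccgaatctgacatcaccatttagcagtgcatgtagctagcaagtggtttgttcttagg

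Of these, B2m, the light chain of MHC class I, was ranked lower at its start (chr2:122147260-122148995), with folds of 15.3, 9.41 and 2.67 and percentiles of 79.2, 19.6 and 6.12. Its summit pile-ups were 56, 123 and 31 fragments over local backgrounds of 2.74, 12.2 and 11.0, and by pile-up its mean shift was −17.6 points, short of the limit. Ptprc encodes the phosphatase CD45, and the region at its start was KO-only with folds of 9.49 and 2.76 in the KO lists. Of all 20085 promoter windows 4.22% held the core letters. The share was 2.14% in windows with no CTCF region and 7.31% in windows at regions of all 3 lists. Median GC in these windows was 51% and 62%, and the core letters are mostly C and G, so these shares are not matched for base composition. It was 5.85% (10 of 171) at regions ranked higher and 6.41% (30 of 468) at those ranked lower, with 95% Wilson intervals of 3.21 to 10.4% and 4.53 to 9.00%, so the shares were not distinguishable at these numbers. WT-only regions had the core in 8 of 165 windows (4.85%) and KO-only regions in 0 of 47, for which the interval reaches 7.56%. With the looser letters CCNNNAGNNGGC, which every core match also has, the shares were 15.1% at regions of all 3 lists, 17.0% at WT-only and 8.51% at KO-only windows, against 10.1% of all windows. A match is a description of these letters and not evidence of a site.

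Width did not separate the genotypes. At the regions of all 3 lists the widest peak had a median of 648 bp in WT, 869 bp in KO list 1 and 456 bp in KO list 2. KO list 1 was wider than WT by a median of 186 bp, with 76.9% of regions wider, and KO list 2 was narrower by a median difference of −162 bp, with 23.7% wider. The mean of the KO lists differed from WT by a median of 22 bp, with an SD of 246 bp between the 2 KO lists (n = 2), so the difference was well within the spread between replicates. KO list 2 minus KO list 1 had a median of −371 bp. After conversion to percentiles, 1323 regions (7.83%) were wider in both KO lists by at least 20 points and 1224 (7.24%) narrower. Of the 1099 regions ranked higher in fold, 247 were also ranked wider and 47 narrower, and of the 990 ranked lower 32 were wider and 150 narrower. Fold and width come from the same peaks, so this agreement is no independent support. Summits of the same region lay a median of 46 bp apart between WT and KO list 1, 79 bp between WT and KO list 2, and 78 bp between the KO lists.

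The place of these regions relative to genes is a property the ranks did not use. The classes here are by fold. By summit pile-up 44.4% of the regions ranked lower and 47.0% of those ranked higher kept their class. Shares at starts for classes by pile-up are not given here. Of the regions ranked lower 38.0% (Wilson 34.9 to 41.1%) had a summit within 1 kb of a protein-coding transcription start, against 28.7% (28.0 to 29.4%) of all regions in 3 lists and 13.5% (11.6 to 15.7%) of those ranked higher. With KO list 1 alone, the list of the WT batch, 27.8% of regions ranked lower and 15.3% of those ranked higher were at starts, against 26.9% of all regions shared with WT. With KO list 2 alone the shares were 43.5% and 12.9%, against 28.5%. The excess at regions ranked lower was thus nearly absent in the batch of the WT list. Regions ranked lower were stronger in WT, and strong WT regions are more often at starts, with 39.5% in the upper quartile of WT fold and 13.2% in the lowest among regions of all 3 lists. Among regions between the 40th and 60th WT percentile the share was 32.6% (103 of 316) for those ranked lower and 20.9% (42 of 201) for those ranked higher. Between the 60th and 80th it was 42.4% (159 of 375) and 29.3% (12 of 41), and in that band the intervals of 37.5 to 47.5% and 17.6 to 44.5% overlap. Intervals cover counting error only, and regions are not replicates of a genotype.

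WT-only regions were at starts in 9.97% and KO-only regions in 6.69% of cases. The WT-only share was 25.01% when all lists were cut to their strongest 22351 peaks, which changes length and strength together, against 31.3% for regions of all 3 cut lists. The KO-only share was 8.65% with cut lists. Inside gene bodies but away from starts lay 53.9% of WT-only, 46.7% of KO-only and 34.7% of all-3 regions. Whether these were exonic or intronic was not determined here.

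**Figure D4:**
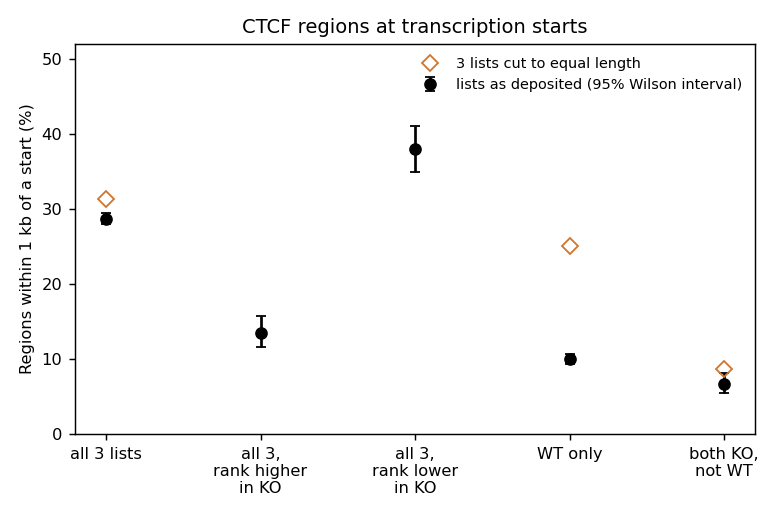
Share of CTCF regions with a summit within 1 kb of a protein-coding transcription start (vertical axis, %), by class of region, for the lists as deposited (filled circles, 95% Wilson intervals) and the 3 lists cut to equal length (open diamonds). The share is 38.0% at regions ranked lower by fold and 13.5% at those ranked higher by fold.

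Gene lists of T cell development, of the binding machinery and of other cell types were counted within 20 kb of the gene body. Over the 12 gene lists together, 179 of 887 WT regions (20.2%) were WT-only and 27 of 428 regions of both KO lists (6.31%) were KO-only. Near all protein-coding genes the shares were 19.4% and 7.14%. Of 401 shared regions near the lists 27 were ranked higher and 22 lower (6.73% and 5.49%), against 6.02% and 6.07% near all genes. Among T-lineage transcription factors 48 of 220 WT regions were WT-only, 6 of 92 were KO-only, and 6 and 7 of 86 were ranked higher and lower. For T cell receptor, recombination and coreceptor genes the counts were 30 of 178, 4 of 78, and 9 (12.2%) and 4 of 74. The CTCF and cohesin genes had 39 of 148, 6 of 75, and 3 and 4 of 69. Regulatory T cell genes had 8 of 46, 4 of 29 (13.8%), and 1 and 1 of 25, cytokine and effector genes 2 of 21 (9.52%), 2 of 12 (16.7%), and 0 and 1 of 10, and survival and death genes 12 of 78, 0 of 38, and 0 and 2 of 38. The CTCF-dense control clusters had 14 of 58, 0 of 29, and 4 and 0 of 29, and housekeeping genes 9 of 59, 2 of 32, and 2 and 3 of 30. Near markers of other cell types 2 of 24 (B cell), 1 of 13 (myeloid), 8 of 23 (erythroid) and 8 of 33 (thymic epithelial) WT regions were WT-only. KO-only regions there were 3 of 20 (15.0%) near thymic epithelial markers and 0 near the other 3 lists, 1 region each was ranked higher near myeloid and erythroid markers, and none was ranked lower. The counts of single lists are small, and no list was tested against the rest.

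At the Satb1 gene (chr17:51736187-51833290), WT had 12 regions within 20 kb, KO list 1 had 26 and KO list 2 had 3. Of the 12, 6 were WT-only, against 19.1% of all WT regions. These 6 were weak, with WT folds of 3.54 to 4.58 and WT percentiles of 6.69 to 27.0. In WT deciles 1 to 3 of all regions, 39.6 to 50.6% were in neither KO list, so 19.1% is not matched for strength. The 3 regions in all lists had their summits within the gene body. The strongest of them in WT was at a start (chr17:51831294-51833975) with folds of 5.88 in WT, 8.33 in KO list 1 and 1.98 in KO list 2. None of the 3 was ranked higher or lower.

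Among the coreceptor genes, 7 of 16 WT regions at Cd8a (chr6:71373427-71379171), 3 of 10 at Cd8b1 (chr6:71322788-71337492) and 2 of 7 at Cd4 (chr6:124864693-124888247) were WT-only, against 19.1% of all WT regions, and none of the 3 genes had a KO-only region. The 7 at Cd8a were weak, with WT folds of 2.85 to 4.72 and WT percentiles of at most 30.6. Some lay in the neighbouring gene Rmnd5a. In WT deciles 1 to 4 of all regions, 29.1 to 50.6% were in neither KO list, so 19.1% is not matched for strength. The region 3919 bp outside the Cd8a gene body (chr6:71369211-71370778) was ranked lower, with folds of 11.4, 13.3 and 3.21 and percentiles of 61.8, 39.3 and 14.5, and by summit pile-up its mean shift was −19.2 points. The region at the start of Cd8a (chr6:71372458-71374021) had folds of 9.87 in WT and 8.91 in KO list 1 and had no peak in KO list 2. Near Cd4 a region in the neighbouring P3h3 gene (chr6:124847158-124847769) was ranked higher, with folds of 9.05, 20.2 and 5.49 and percentiles of 45.3, 66.9 and 67.0, but a pile-up shift of only 3.59 points. The strongest WT region near Cd4 was beside Lag3, an inhibitory receptor gene (chr6:124903181-124904497), with folds of 15.7, 23.8 and 5.98 and percentiles of 80.5, 75.8 and 73.7.

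Rag1 and Rag2 encode the recombinase that cuts antigen receptor genes. Near Rag1 a region 3492 bp outside the gene body (chr2:101652194-101653321) was ranked higher, with folds of 8.31, 19.9 and 5.08 and percentiles of 39.0, 66.1 and 60.4, and its pile-up ranks were past the limit too. The region 35 bp outside the gene body, at the Rag1 start (chr2:101649285-101649943), had folds of 8.19 in WT and 5.80 in KO list 1 and no peak in KO list 2. Near the constant region of the T cell receptor gamma chain, Trgc1, a region (chr13:19236015-19236856) was ranked higher, with folds of 3.17, 18.1 and 4.75. It went from the 0.73rd percentile in WT to 59.9 and 54.4, with summit pile-ups of 13, 83 and 35 fragments. SMC1A had peaks there in both KO libraries and in neither WT library. No region was ranked higher or lower within 20 kb of the other T cell receptor constant genes. Shared regions there were 3 at Trac, 1 at Trdc and 6 each at Trbc1 and Trbc2. The windows of Trbc1 and Trbc2 overlap, so their regions are not separate counts.

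Among transcription factor genes, Bcl6, a repressor gene, had adjoining regions ranked in opposite directions by fold. The region in its body (chr16:23981725-23988028) was ranked lower, with folds of 16.8, 12.1 and 4.51, and the adjoining one (chr16:23988219-23991817) was ranked higher, with folds of 8.14, 22.1 and 7.19. Neither was past the limit by summit pile-up, with mean shifts of −9.18 and 10.6 points. The summit pile-ups of the body region were 54, 85 and 53 fragments over local backgrounds of 2.28, 6.09 and 11.0. In Ets1 a region in the gene body (chr9:32740549-32741905) had folds of 9.58, 38.9 and 7.38 and was ranked higher, also by pile-up. Tox, which encodes an HMG-box factor of the DP stage, had a region ranked lower (chr4:6990302-6991700) with folds of 11.3, 5.65 and 3.17 but a pile-up shift of only −10.0 points, and a KO-only region in the same gene body (chr4:6901479-6903037) with folds of 14.8 and 3.90. Ikzf1, the Ikaros gene, had a KO-only region 5869 bp outside its body (chr11:11678599-11679623) with folds of 21.4 and 5.18. Runx3 had a WT-only region at a start (chr4:135152264-135152573) with a fold of 8.87 and no SMC1A peak in any library.

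Among other T cell genes, the regions near Cd3e (chr9:45022763-45023420), Cd247 (chr1:165853360-165854354) and Il2ra (chr2:11687142-11688289) were ranked lower. Cd3e and Cd247 encode signalling chains of the T cell receptor complex, and Il2ra a chain of the IL-2 receptor. Their folds were 13.1, 10.3 and 4.09 near Cd3e, 13.3, 13.7 and 4.33 at Cd247, and 11.9, 11.8 and 3.34 at Il2ra. The raw folds at Cd247 and Il2ra were nearly level between WT and KO list 1, while the KO list 1 folds of shared regions were higher as a whole. By pile-up only the Il2ra region was still ranked lower, with mean shifts of −39.2 points there, −17.6 near Cd3e and −15.3 at Cd247.

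In the genes of the binding machinery, the region at the Ctcf start (chr8:105634906-105637478) kept its rank, with folds of 16.4, 28.6 and 6.86 and shifts of 1.50 and −0.52 points. A second region inside Ctcf (chr8:105660965-105661538) was ranked higher, also by pile-up, with folds of 5.91, 14.8 and 5.69. The start of Wapl, the cohesin release factor gene (chr14:34673145-34674103), was ranked lower with folds of 17.4, 15.2 and 4.58, and its pile-up ranks were not past the limit in both KO lists. Rad21, which encodes the cohesin kleisin subunit, had 1 region of all 3 lists within 20 kb (chr15:51991514-51992304), with folds of 9.63, 22.1 and 4.27 and shifts of 22.6 and −6.22 points, so the KO lists differed in direction. Near Myc a region (chr15:61982836-61988307) was ranked higher by fold, with folds of 8.60, 26.5 and 7.30, and had a pile-up shift of 18.4 points.

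Along the chromosomes the differences were spread widely. The WT-only share ran from 15.8% on chromosome 14 to 21.8% on chromosome 4, and the KO-only share from 6.29% on chromosome 8 to 11.1% on chromosome 13. Regions ranked higher made up 4.20% of shared regions on chromosome 11 and 8.97% on chromosome 13, the ends of that range. Among 1140 windows of 1 Mb with at least 10 WT regions the WT-only share had a median of 18.5% and quartiles of 13.3 and 25%. The highest was 63.6% (7 of 11) at 33 to 34 Mb of chromosome 19, over the Lipo lipase genes, and 61.3% (19 of 31) followed at 15 to 16 Mb of chromosome 5, over the Speer genes and Cacna2d1.

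SMC1A, a core cohesin subunit, was read in libraries that took no part in defining the CTCF classes. At regions of all 3 CTCF lists an SMC1A peak was present in 70.9% and 72.8% in WT and in 84.1% and 73.1% in KO. KO minus WT was 13.1 points in batch 1 and 0.266 points in batch 2. At KO-only CTCF regions SMC1A was present in 13.1% and 15.1% in WT and in 45.4% and 29.0% in KO, a difference of 23.1 points, with 32.2 points in batch 1 and 13.9 in batch 2. Both KO libraries lay above both WT libraries, and the exact two-sided permutation test gave p = 0.3333, the smallest that 2 against 2 allows. Over all 62309 CTCF regions both KO libraries also lay above both WT ones, with the same p and a difference of 5.78 points. At WT-only regions SMC1A was nearly absent in every library, with 2.86% and 2.57% in WT and 2.96% and 1.15% in KO. The SMC1A list of KO replicate 1 was the longest, with 27459 peaks against 19466 to 20172 in the other lists. KO replicate 1 also had the longest CTCF list, with 54222 peaks. With all SMC1A lists cut to the shortest, the difference was 15.7 points at KO-only regions and 1.52 points at regions of all 3 lists. Without SMC1A KO replicate 1 these were 14.8 and 1.22 points. With 1 CTCF KO list alone to define the KO-only class, the difference there was 10.1 points (KO list 2) or 7.63 points (KO list 1).

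SMC1A was ranked by fold only, as summit pile-up and local background were not solved for its lists. By fold rank, SMC1A strength differed in the same direction as CTCF strength. The share of regions with an SMC1A peak did not follow at regions ranked lower. That share was higher in KO by 18.0 points at regions ranked higher, with 25.1 in batch 1 and 10.8 in batch 2. At regions ranked lower it was higher in KO by 1.72 points, with 8.48 in batch 1 and −5.05 in batch 2. Over the 9838 regions held by all 7 lists, SMC1A fold was ranked within each SMC1A list, a readout chosen after the shares had been seen. At the 570 of these where CTCF was ranked higher in KO, the median SMC1A percentile was 32.3 and 35.6 in WT and 46.5 and 46.1 in KO. The KO mean was 12.3 points higher, with 14.1 points in batch 1 and 10.5 in batch 2. At the 590 regions where CTCF was ranked lower the medians were 43.0 and 41.5 in WT and 31.5 and 32.5 in KO, a difference of −10.3 points, with −11.5 and −9.04 in the batches. In each class the 2 KO libraries did not overlap the 2 WT libraries, and the exact permutation p was 0.3333 for each, again the smallest possible. Over all 9838 regions the KO libraries also did not overlap the WT ones, with the same p and a difference of only 0.0623 points. The lack of overlap is thus not particular to these classes.

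Region by region, both KO SMC1A percentiles exceeded both WT ones at 198 of the 570 (34.7%), against 20.5% over all 9838, and both were below at 61 (10.7%), against 21.0%. At the 590 regions ranked lower the order was turned, with 68 (11.5%) above and 202 (34.2%) below. The direction was the same in both batches. The CTCF classes used the WT library of batch 1 and the KO libraries of both batches. With the CTCF classes ranked by summit pile-up, an alternative added after seeing the data, the SMC1A differences were 14.5 and −13.9 points. With the CTCF classes from KO list 2 alone they were 4.84 and −3.74 points, and from KO list 1 alone 10.6 and −11.3. Labels do not say that replicates are separate animals, so the spread between them may be technical.

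**Figure D5:**
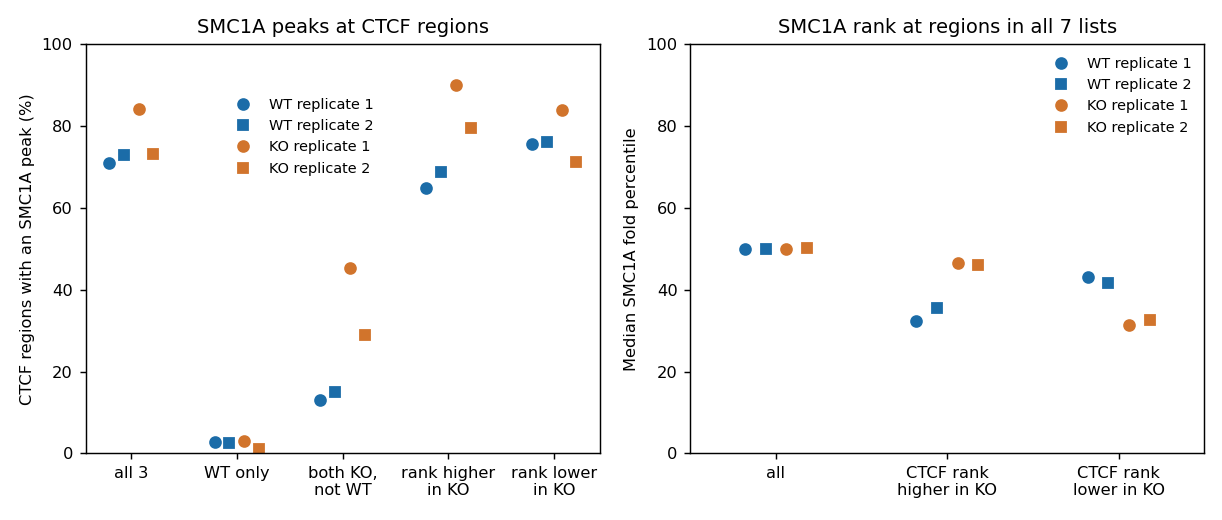
SMC1A in WT (blue) and KO (orange) libraries of batch 1 (circles) and batch 2 (squares): left, share of CTCF regions of each class with an SMC1A peak (%), which at KO-only regions is 13.1 and 15.1% in WT and 45.4 and 29.0% in KO. Right, median SMC1A fold percentile at regions held by all 7 lists, where the KO symbols lie above the WT ones for CTCF rank higher and below them for CTCF rank lower.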

How the data were processed

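Per the labels' protocols, nuclei of sorted DP thymocytes were incubated with antibody for 2 h before nuclease cleavage. MACS2, Bowtie2, Trimmomatic 1.24 and the mm10 build appear in the submitters' processing notes, and neither the caller's settings nor its control is given in those sources. The deposited lists are 1 per library. For each peak the authors deposited a fold enrichment (ratio), −log10 p and −log10 q values, a whole-number score that was not used, and a summit offset in bp. The highest q in the CTCF lists was 0.0496.

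Computed here, with Python 3.11.15, numpy 2.4.6, pandas 2.3.3 and scipy 1.17.1: peaks of chromosomes 1 to 19 were merged at 1 bp overlap, a region took its list's highest fold and widest peak, and percentiles were taken within the regions of all 3 lists, with 20 points in both KO lists as the limit. Pile-up and background were solved from these values with the Poisson model of MACS2, with 1 of 22351 peaks of KO list 2 unsolved. The steps were tested on simulated data. Genes came from RefSeq (GRCm38.p6, the assembly behind mm10). Transcription starts came from its promoter table, which covers 16457 of 20665 protein-coding genes and none on chromosome 18, so shares at starts leave out that chromosome. SMC1A was compared by exact two-sided permutation over 4 libraries. Intervals are 95% Wilson and cover counting error only.

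Regions named are 10 genes always described, the 6 strongest per direction of presence and of rank, 5 shared regions, and up to 2 genes per gene list and direction, of which a part is printed. Members and lists were chosen with earlier results of these data known. Batch numbers equal the replicate numbers in the titles and so pair SMC1A libraries, while CTCF has 1 WT list. Chromosomes X and Y and other contigs were left out of the comparisons.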

Additional observations from a re-analysis of the deposited data

Results flagged for a closer look

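CTCF peaks were also present on the sex chromosomes, which the comparisons above leave out. Chromosome X held 698 peaks in WT, 1471 in KO list 1 and 527 in KO list 2. Chromosome Y held 69, 57 and 50. Per 1000 peaks of the list, chromosome X had 17.9, 26.4 and 22.9. These numbers drew attention because they lie outside the measurement on chromosomes 1 to 19, and no comparison was made on them.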

How the results depend on the processing

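WT has 1 CTCF list, and the KO lists differ in length and background, so presence in a list depends on both. The counts of WT-only and KO-only regions were 1910 and 968 with −log10 q of 5 or more. With lists cut to the shortest, WT-only regions numbered 3023. When an overlap had to cover 0.5 of the shorter peak, 2368 peaks were KO-only, and with summits within 200 bp the counts were 10997 and 2556. Leaving out a KO list gave 7043 to 20461 WT-only and 3915 to 25071 KO-only regions. Regions ranked higher and lower were 2432 and 2265 with 10 points and 453 and 369 with 30. They were 3659 to 3683 and 3581 to 3705 without a KO list, since 1 list alone then decides. Ranks by −log10 q or summit pile-up, stricter or cut lists, and leaving out regions of high local background (chosen after seeing the data) moved these counts by less than 1.5 times. Of the regions ranked higher by fold 769 of 1099 were also ranked higher by −log10 q and 0 lower, and of those ranked lower 682 of 990 and 0. By summit pile-up 517 and 440 were shared and 0 opposite. The median width difference was −156 bp without KO list 1 and 150 bp without KO list 2.

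The share at starts within 2 and 5 kb was 31.9% and 38.5% for regions of all 3 lists, 20.8% and 36.7% for WT-only and 12.1% and 19.7% for KO-only regions. With lists cut to the shortest it was 31.3%, 25.01% and 8.65%. Without a KO list it was 26.9 to 28.5%, 9.92 to 20.6% and 8.12 to 8.72%, and 27.8 to 43.5% at regions ranked lower. Near the 12 gene lists, leaving out a KO list gave 20.9 to 57.5% WT-only, 15.7 to 49.5% KO-only, 11.5 to 15.6% ranked higher and 13.4 to 18.9% ranked lower.

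SMC1A kept its direction at regions of all 3 lists, at KO-only regions and at regions ranked higher under the alternatives run. It reversed at WT-only regions, from −0.66 points to 3.31 with classes without CTCF KO list 1, and from −1.56 to 0.25 over the SMC1A replicates left out. At regions ranked lower its share went from 1.72 points to −4.49 with SMC1A lists cut to the shortest and −1.20 with classes without CTCF KO list 2, and from −4.70 to 8.13 over the replicates left out. The rank differences of SMC1A, alternatives chosen after seeing the data, ran from 4.84 to 16.0 and from −17.1 to −3.74 points. With the replicate block (pairing by batch) the differences were 23.1 points at KO-only regions, 12.3 at regions ranked higher and −10.3 at those ranked lower, each with an exact sign-flip permutation p of 0.5, the smallest possible. It changed no call, as none was made. No paired analysis was possible for CTCF because WT has 1 list. The cause of these changes was not tested. Of 41 named rank shifts 29 stayed past the limit by −log10 q and 17 by summit pile-up, where 2 turned, the Il13 region to 9.96 and the Tubb5 region to −3.17 points. Of 66 named WT-only or KO-only regions 33 kept their class at −log10 q of 5 or more and 30 in cut lists.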
